A study of Mus musculus with 8 samples.

Results

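The cytosolic ribosomal protein genes were 83 of the 30396 genes and unnamed transcripts on a mouse expression array, read by 188 of its 39429 probes. Probes were chosen by the gene name on the array: Rpl and Rps followed by a number, the P-stalk genes Rplp0, Rplp1 and Rplp2, and the small subunit genes Rpsa and Fau. Pseudogene names and the Rps6k kinases were left out. The large subunit had 117 probes of 50 genes and the small subunit 71 probes of 33 genes. The rule uses names and no measured value, but it was set with earlier results of these data known.

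The arrays compared 4 wildtype with 4 Brd2+/- (heterozygous) adult female mouse samples, and the question was how a lower dose of Brd2, which encodes a bromodomain protein that binds acetylated histones, relates to gene expression in the brain. The heterozygous samples carried a gene-trap vector in Brd2, both genotypes came from matings between heterozygous parents, and the strain was C57Bl/6j after 7 generations of backcrossing (on average 99% of the background). The labels give the dissected tissue as striatum and in another field also name the prefrontal cortex. Each of 4 arrays held 2 samples of the same genotype, 1 labelled with Cy3 and 1 with Cy5. Male samples were not analysed here. The design text calls the replicates biological without saying how many animals went into each, so a p-value here reflects the spread among these 8 samples and no more.

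A cytosolic ribosome is built from a large and a small subunit, each a core of ribosomal RNA clad in proteins that are, with few exceptions, present in a single copy per subunit. The mRNAs of these proteins are among the most abundant in any cell, and in mammals they typically begin with a 5′ terminal oligopyrimidine tract, an unbroken run of C and T through which mTORC1 signalling and the RNA-binding protein LARP1 control their translation. Many of the genes have processed pseudogenes elsewhere in the genome, so that a short probe can match more than the gene it is named for. In neurons, ribosomes also work in dendrites and axons.

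Runs of C and T were frequent around the annotated start of these mRNAs. RefSeq windows (assembly GRCm38.p6) were found for 63 of the 83 genes, with 75 start sites. A chromosome was left out of the search, for these genes and for the others. An unbroken run of at least 8 C or T on the gene's strand, within 20 bases before to 50 bases after the start, stood in 51 of the 75 windows (68.0%), against 25.3% of the 32776 windows of other genes. Runs of at least 8 A or G, which are the same letters on the opposite strand, stood in 8 of the 75 windows and in 28.7% of the others. The letters CCGGAAG, searched on both strands of the full window of 300 bases, were present in 27 of the 75 windows (36.0%) and in 8.80% of the others. The following windows run from 10 bases before the annotated start to 20 bases from it on, 5′ to 3′ on the gene's strand, with the longest run of C and T in capitals. They show such a run in 5 genes of both subunits and, for comparison, the window of Rpl36al, an intronless copy of Rpl36a. In these 5 genes the run begins before the annotated start, so a tract at the very front of the mRNA is not shown.
Rps6, chr4:86857348-86857377, minus strand: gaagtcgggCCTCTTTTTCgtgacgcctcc
Fau, chr19:6057937-6057966, plus strand: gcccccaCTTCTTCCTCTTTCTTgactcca
Rpl35, chr2:39005112-39005141, minus strand: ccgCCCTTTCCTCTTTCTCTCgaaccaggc
Rpl28, chr7:4792955-4792984, plus strand: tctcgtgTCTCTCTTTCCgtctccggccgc
Rplp2, chr7:141447641-141447670, plus strand: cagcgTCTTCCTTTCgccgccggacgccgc
Rpl36al, chr12:69184048-69184077, minus strand: ccgtcgctcaggttcagttccgaCTTCCgc
The longest runs in these windows were 10 bases for Rps6, 16 for Fau, 18 for Rpl35, 11 for Rpl28, 10 for Rplp2 and 5 for Rpl36al.

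Of all spots on the arrays, 37.7% to 75.5% per sample were called well above background by the scanner software, and of the ribosomal protein probes 92.6% to 98.9% were. Of the 188 probes, 174 were well above background in all 8 samples, and 181 probes of 81 genes could be tested. Outlier spots were left out, which removed at least 1 value from 42 of the 181 tested probes (23.2%), against 5.82% of all probes tested, and left 139 with a value in every sample. Of 2 tested Brd2 probes, the brighter one, at base 4590 of the transcript, ran from 12.64 to 13.10 (log2) in the wildtype samples and from 11.70 to 12.57 in the heterozygous ones, a difference of −0.85 (SE 0.19, limma adjusted p = 0.390) and 55.4% of the wildtype level (exact two-sided permutation test, p = 0.0286, the smallest that 4 against 4 allows). The other Brd2 probe, at base 1265 and well above background in 5 of 8 samples, differed by 0.29 (SE 0.17, limma adjusted p = 0.645), and the mean of both gave −0.28 (limma adjusted p = 0.623). These Brd2 levels were not dye-adjusted, and the permutation test took the 8 samples as independent although each array held 2 of the same genotype. By the brighter probe the library labelled heterozygous replicate 3, a Cy3 sample, held 81.9% of the wildtype mean over both dyes. The label of that library is therefore in doubt, and the main results are given with and without it. Marker genes also set samples apart: all 12 tested markers of striatal projection neurons had negative fitted differences, with median levels of −1.09 in the library labelled heterozygous replicate 3 and −0.71 in heterozygous replicate 2 and between −0.11 and 0.16 in the other samples (log2, relative to the wildtype mean). All 8 markers of cortical excitatory neurons had positive differences, with medians of 0.62 to 2.04 in heterozygous samples, 0.83 in wildtype replicate 2 and −0.26 to −0.16 in the other 3 wildtype samples. Markers of choroid plexus and ependyma had a median of 1.60 in the library labelled heterozygous replicate 3 and −0.61 in heterozygous replicate 1, with wildtype samples between −0.20 and 0.11. Blood markers stood at −1.06 in heterozygous replicate 4 and −0.58 in the library labelled heterozygous replicate 3 (wildtype −0.11 to 0.23), and oligodendrocyte markers at 0.49 in that library (wildtype −0.21 to 0.10). The part of this tissue mixture in the ribosomal protein values was not tested, and in such bulk samples fewer cells of a type and less RNA per cell cannot be told apart.

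With loess and Aquantile normalization, the ribosomal protein group lay close to other genes by the brightest probe of each gene. Its median difference between heterozygous and wildtype samples was −0.04, against −0.02. Over all ribosomal protein probes the median was −0.09, against −0.02 over all probes tested. No ribosomal protein probe passed an adjusted p of 0.05 (limma with Benjamini-Hochberg adjustment over 25323 probes; lowest adjusted p 0.373), and of all probes 1 did (0.00395%). At an unadjusted p under 0.05, 4 of the 181 probes were higher and 7 lower in heterozygous samples, 6.08% in all, against 8.89% of all probes (4.06% higher, 4.83% lower). Without the library labelled heterozygous replicate 3, the counts were 2 higher and 12 lower (7.73%, against 11.6% of all probes). The count moved further without other libraries: 3 higher and 20 lower without heterozygous replicate 2 (12.7%, against 10.4%), 1 and 1 without heterozygous replicate 4 (1.10%, against 3.98%), and 3 and 14 without wildtype replicate 3 (9.39%, against 11.9%). Data were simulated for the same 8 samples, with independent noise in each sample, no shared array effect and no value left out. There the test recovered 56% of probes changed 2-fold and 14% of those changed 1.5-fold. No ribosomal protein probe had a fitted difference of more than 1.5-fold.

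Of the 139 probes measured in every sample, 13 had genotypes that did not overlap: 3 with every heterozygous sample above every wildtype sample and 10 with every heterozygous sample below. That is 9.35%, and over all probes the share was 8.62% (3.39% higher, 5.23% lower). Without the library labelled heterozygous replicate 3 the counts were 3 and 15 (12.9%, against 14.6% of all probes). The 3 higher probes were of Rps15a, Rpl22 and Rpl23. The 10 lower probes were of Rpl11, Rpl13, Rpl13a, Rpl14, Rpl17 (2 probes), Rpl34 (2 probes), Rpl6 and Rps19. Of these 13 probes, 11 belonged to the large subunit (11 of 82, 13.4%) and 2 to the small subunit (2 of 57, 3.51%), a split that was not tested.

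With the brightest tested probe standing for each gene, the median difference between heterozygous and wildtype samples was −0.04 (log2) over 81 genes, and 33 of the 81 were above 0 (40.7%). Over all 19844 genes tested the median was −0.02 and 45.6% were above 0. The large subunit had a median of −0.05 (21 of 48 genes above 0) and the small subunit −0.02 (12 of 33 above 0), a gap of −0.03 that was not tested. Genes ran from −0.48 (Rps19) to 0.42 (Rpl13), and 29.6% of them differed by more than 0.20 in either direction, against 35.1% of all genes. The Rpl13 value is that of a probe placed on chromosome 4, while RefSeq has the gene on chromosome 8. Of the 188 ribosomal protein probes, 11 were placed on another chromosome than their gene.

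**Figure D1:**
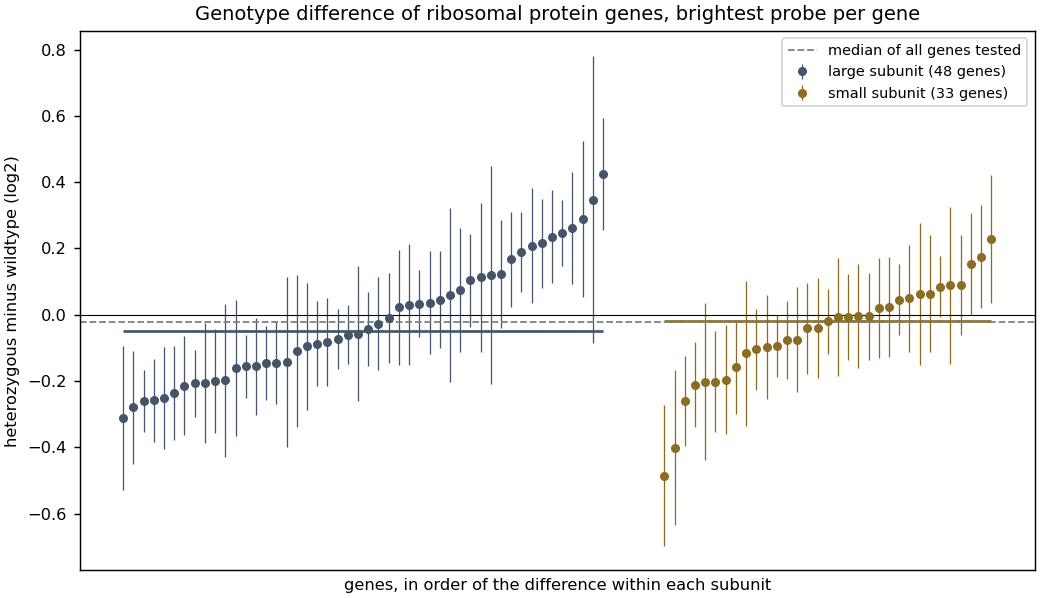
Fitted difference between heterozygous and wildtype samples (log2, vertical axis) for the brightest tested probe of each ribosomal protein gene, in order within the large (48 genes) and small (33 genes) subunit. Bars are 1 standard error, solid lines the subunit medians (−0.05 and −0.02), the dashed line the median of all genes tested (−0.02). Genes of both subunits spread to both sides of 0.

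The group's position depended on how intensities were scaled. With the scanner's processed signals scaled to each sample's 75th percentile, the median over ribosomal protein genes was −0.24 with 6 of 81 genes above 0, and in the deposited value table it was −0.32 with 5 of 81 above 0, while the medians over all probes were −0.05 and −0.04. In the deposited value table, 28 ribosomal protein probes were lower and 1 higher at an unadjusted limma p under 0.05 (16.0%, against 5.07% of all probes), and in the signals scaled to the 75th percentile 1 was higher and 11 lower (6.63%, against 6.39%). Quantile scaling of the same processed signals gave a median of −0.08 with 31 of 81 above 0. Loess within arrays with no scaling between them gave −0.08 with 26 of 81 above 0, while the median over all probes was 0.10. The within-dye medians were 0.01 among Cy3 samples and −0.08 among Cy5 samples. In their dye effect, the brightest probes of the ribosomal protein genes had a median of −0.16 (log2, Cy5 minus Cy3), against 0.04 for the brightest probes of all genes. By the brightest probes, the direction of the group was therefore not settled beyond the spread of these settings. With the mean of all probes of a gene, the median was −0.08 with 24 of 81 genes above 0. Over all ribosomal protein probes the median was −0.09, and it ran from −0.32 to −0.05 under 22 alternatives. That median over all probes was added after the data were seen and was not tested.

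**Figure D2:**
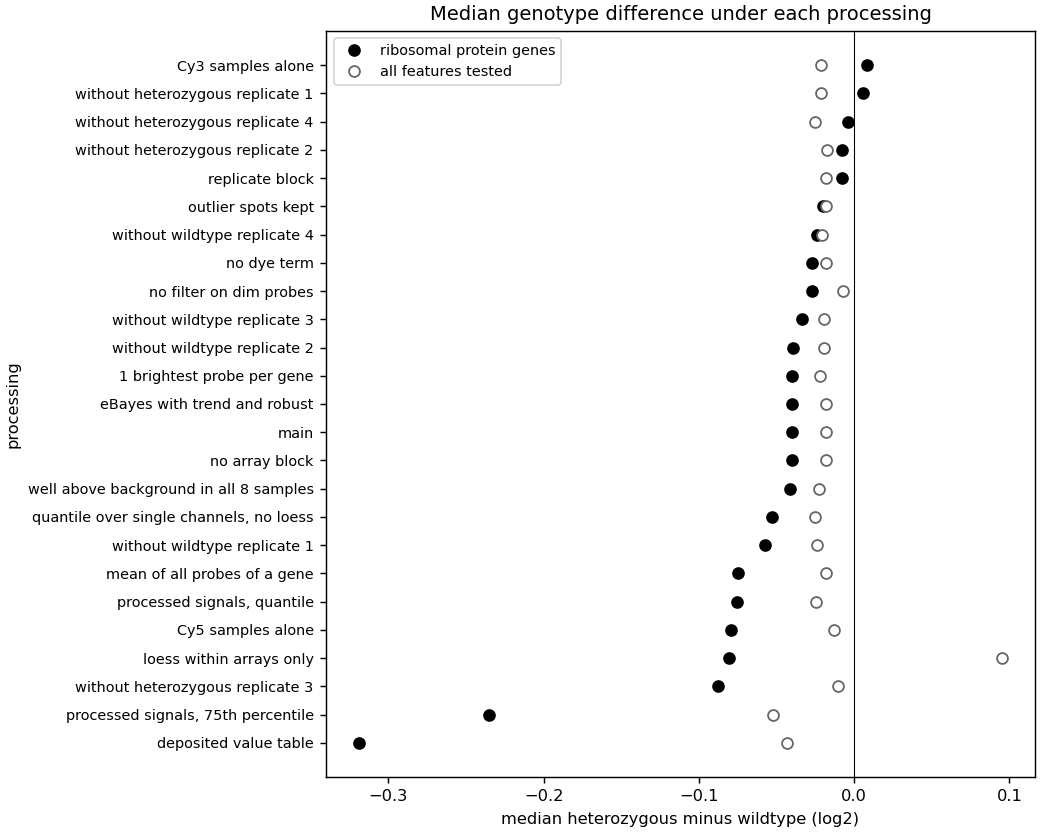
Median difference between heterozygous and wildtype samples (log2, horizontal axis) over the 81 ribosomal protein genes (filled) and over all features tested (open) under each processing (vertical axis). The filled points run from −0.32 in the deposited value table to 0.01 among the Cy3 samples, and only the 2 lowest lie below −0.20.

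By sample, the median level of the 81 genes relative to their wildtype mean was −0.01, −0.03, −0.00 and 0.05 (log2) in wildtype replicates 1 to 4. It was −0.12 in heterozygous replicate 1, −0.07 in replicate 2 and −0.03 in replicate 4, and 0.12 in the library labelled heterozygous replicate 3. That library alone lay above every wildtype sample, and the other 3 heterozygous samples lay at or below the lowest of them. Without it the median difference of the group was −0.09 with 22 of 81 genes above 0, and without heterozygous replicate 1 it was 0.01. Of the 139 probes measured throughout, the library labelled heterozygous replicate 3 was the highest of the 8 samples for 46 and the lowest for 28, 53.2% in all, against 47.5% of all probes. Wildtype replicate 3 came next, highest for 34 and lowest for 19 (38.1%, against 27.7% of all probes), whereas over all probes wildtype replicate 1 came next with 31.1% (26.6% of the ribosomal protein probes).

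The probe with the smallest p was 1 of 3 for Rps15a, a small subunit protein. It is placed at chr7:125248322-125248381 (mm9, minus strand), and the array's annotation starts it at base 4642 of the transcript. It measured 8.77, 8.78, 8.74 and 8.84 (log2) in wildtype replicates 1 to 4 and 9.25, 9.17, 9.38 and 9.35 in heterozygous replicates 1 to 4, so that the groups were far apart relative to their spread. The difference was 0.51 (SE 0.10, 1.42-fold, limma adjusted p = 0.373), 0.56 among Cy3 and 0.45 among Cy5 samples and 0.48 without the library labelled heterozygous replicate 3. The other 2 probes of the gene start at bases 250 and 320, and they differed by 0.09 (SE 0.11) and −0.04 (SE 0.14) with overlapping values. The higher signal was thus seen at the distant probe and not at the probes near the front of the transcript. The distant probe was dim, at 8.74 to 9.38, whereas the brightest probe of the gene was the one with −0.04. Whether the distant probe reads the same mRNA as the other 2 was not tested.

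A pair of large subunit probes had the same arrangement of groups. The Rpl22 probe at base 1882 measured 11.67, 11.73, 11.49 and 11.42 in wildtype samples against 11.82, 11.79, 11.91 and 11.96 in heterozygous ones, a difference of 0.29 (SE 0.11, limma adjusted p = 0.521). Its other probe, at base 385, gave 0.12 (SE 0.33); its value of 14.91 in the library labelled heterozygous replicate 3 exceeded those of the remaining heterozygous samples, 13.70 to 14.24. The brightest Rpl23 probe measured 15.77, 15.62, 15.56 and 15.80 in wildtype samples against 15.93, 15.88, 15.98 and 15.94 in heterozygous ones, a difference of 0.25 (SE 0.10, limma adjusted p = 0.540). The 2 further Rpl23 probes differed by −0.11 and −0.17, so the gene's probes did not share a sign. Of these, the probe at base 925 was printed in 10 copies on the array, whose SD within a sample was 0.17 to 0.44 (log2), and its dye-adjusted level was 10.45 to 10.93.

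Rpl17 was the gene with most probes (7), and 6 of them had negative differences, from −0.39 to −0.16. The probe at base 590 measured 14.04, 14.06, 13.99 and 13.96 in wildtype samples against 13.55, 13.74, 13.76 and 13.57 in heterozygous ones, a difference of −0.36 (SE 0.10, limma adjusted p = 0.441). That was the smallest p among the lower probes, and the value was −0.36 among Cy3 samples, −0.36 among Cy5 samples and −0.40 without the library labelled heterozygous replicate 3. The overlapping probe at base 586, which crosses an intron, gave −0.26 (SE 0.09) and its groups were also apart. The seventh probe gave 0.22 with an SE of 0.45, because outlier marks left only 2 wildtype values, 14.98 and 13.61.

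Both probes of Rpl34, a large subunit protein, had every heterozygous sample below every wildtype sample. The probe at chr3:130431671-130431730 (mm9, minus strand) lies in 1 exon and has the sequence
Rpl34: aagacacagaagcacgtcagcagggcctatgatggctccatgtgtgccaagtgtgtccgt
It measured 14.83, 14.74, 14.62 and 14.62 in wildtype samples against 14.16, 14.43, 14.54 and 14.37 in heterozygous ones, a difference of −0.33 (SE 0.12, limma adjusted p = 0.510), and −0.39 without the library labelled heterozygous replicate 3. The second probe, across an intron, measured 15.53, 15.52, 15.56 and 15.57 against 15.27, 15.47, 15.41 and 15.21, a difference of −0.21 (SE 0.10).

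The Rpl31 probes (5) were all lower by their fitted values, from −0.58 to −0.06, though none of the 4 measured in every sample had groups apart. The probe with the smallest p measured 14.43, 14.17, 14.43 and 14.17 in wildtype samples against 13.77, 14.30, 13.87 and 13.86 in heterozygous ones, where replicate 2 lay within the wildtype range. Its difference was −0.35 (SE 0.15, limma adjusted p = 0.551), which split into −0.61 among Cy3 and −0.09 among Cy5 samples. Rpl30 had the same dependence: its dim probe at base 90 measured 10.08, 9.98, 10.15 and 9.83 against 9.54, 9.94, 9.63 and 9.64, a difference of −0.32 (SE 0.13), with −0.53 in Cy3 and −0.11 in Cy5. Its 2 bright probes gave −0.03 and −0.08.

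**Figure D3:**
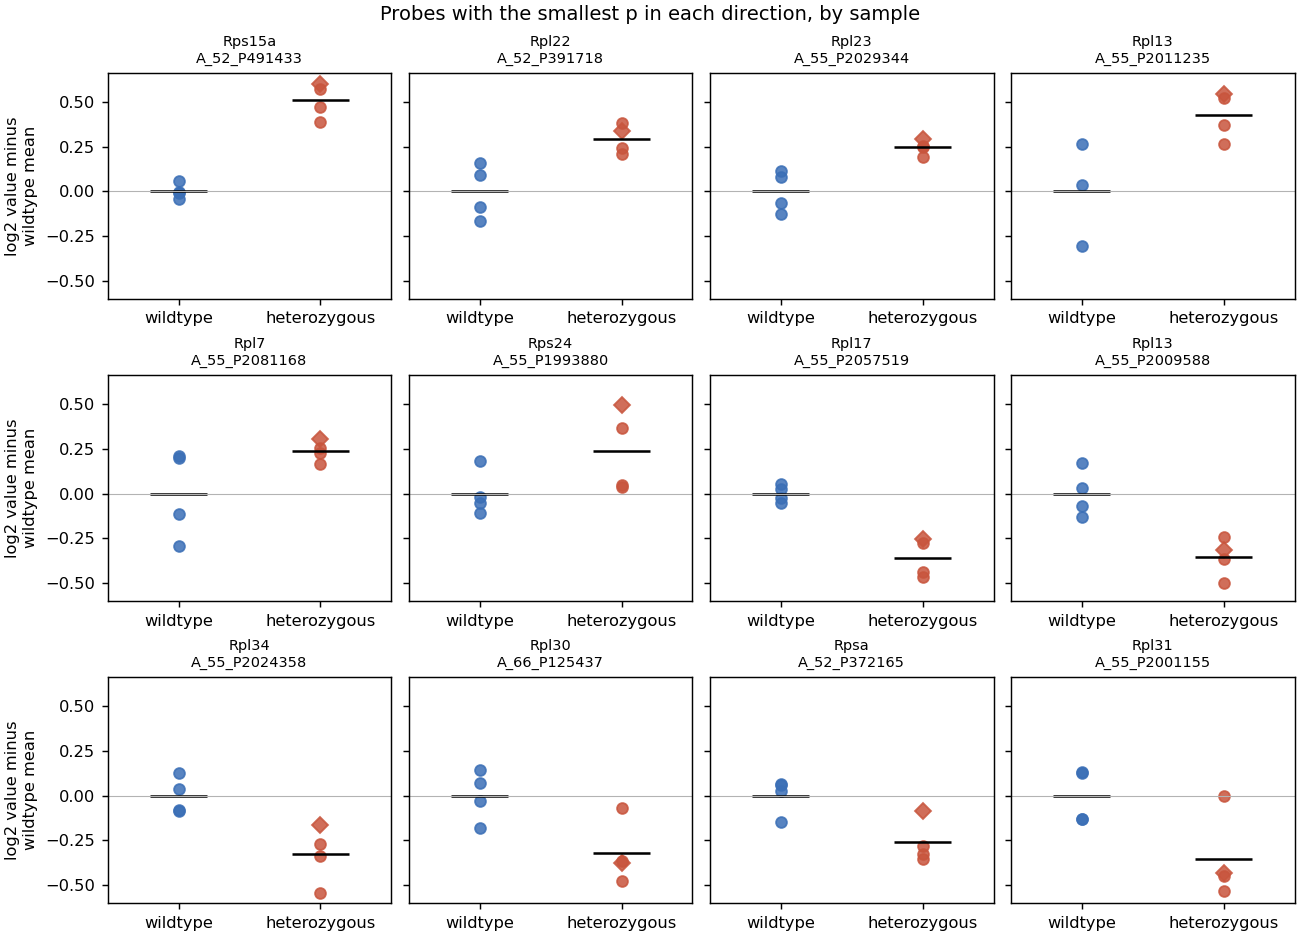
Dye-adjusted log2 value minus the wildtype mean (vertical axis) in each sample for the 6 probes with the smallest p in each direction, 1 per gene and direction. Blue points are wildtype and red points heterozygous samples, the diamond is the library labelled heterozygous replicate 3, and bars are group means. The Rps15a, Rpl22 and Rpl23 panels (higher) and the Rpl17, Rpl13 A_55_P2009588 and Rpl34 panels (lower) show groups that do not overlap.

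Rpl13 had probes on both lists, and it had the widest range between probes of any gene (0.78). Its 4 probes stand on 2 different kinds of site. The first of the following is placed on chromosome 8, where RefSeq has the gene, as chr8:125627816-125628964 (mm9, plus strand), and crosses an intron. The second, which as the brightest probe stood for the gene above, is placed in an unbroken stretch on chromosome 4, chr4:52254267-52254326 (mm9, plus strand).
Rpl13 A_55_P2009588: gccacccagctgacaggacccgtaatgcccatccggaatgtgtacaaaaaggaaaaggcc
Rpl13 A_55_P2011235: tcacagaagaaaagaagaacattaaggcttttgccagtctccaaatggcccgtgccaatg
The chromosome 8 probe measured 15.37, 15.31, 15.61 and 15.47 in wildtype samples against 14.95, 15.20, 15.13 and 15.08 in heterozygous ones, with groups apart and a difference of −0.35 (SE 0.11, limma adjusted p = 0.478). The chromosome 4 probe measured 15.33, 15.56 and 14.99 in wildtype replicates 1, 2 and 4 and 15.56, 15.66, 15.84 and 15.81 in heterozygous samples, a difference of 0.42 (SE 0.17, limma adjusted p = 0.542). Both signs were kept within each dye, with −0.45 and −0.25 for the first and 0.37 and 0.46 for the second. A further chromosome 8 probe gave 0.24 (SE 0.21) and a further chromosome 4 probe 0.02 (SE 0.17), so chromosome alone did not sort the signs.

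Across the family, 55 genes had at least 2 tested probes. In 29 of them the probes had differences of both signs, in 22 all were negative and in 4 all were positive. The range between the probes of a gene had a median of 0.22. The median size of a gene's difference was 0.12 over 81 genes, with a median SE of 0.15. A range over several probes widens through such error alone, so these 2 medians cannot be compared directly. The median over all genes depended on the probe: the probes that were not the brightest of their gene had a median of −0.13 with 24 of 100 above 0, against −0.04 for the brightest. Rpl7 shows the point at close range. Its probes at bases 871 and 876 overlap and gave 0.24 (SE 0.14) and −0.18 (SE 0.11). The first measured 15.06 to 15.57 in wildtype and 15.52 to 15.65 in heterozygous samples, the second 15.04 to 15.14 and 14.76 to 15.06, so values overlapped between genotypes in both. The 4 probes of Rpl6 all had negative differences, from −0.23 to −0.10, and the brightest had groups apart at 15.58 to 15.72 against 15.38 to 15.55.

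**Figure D4:**
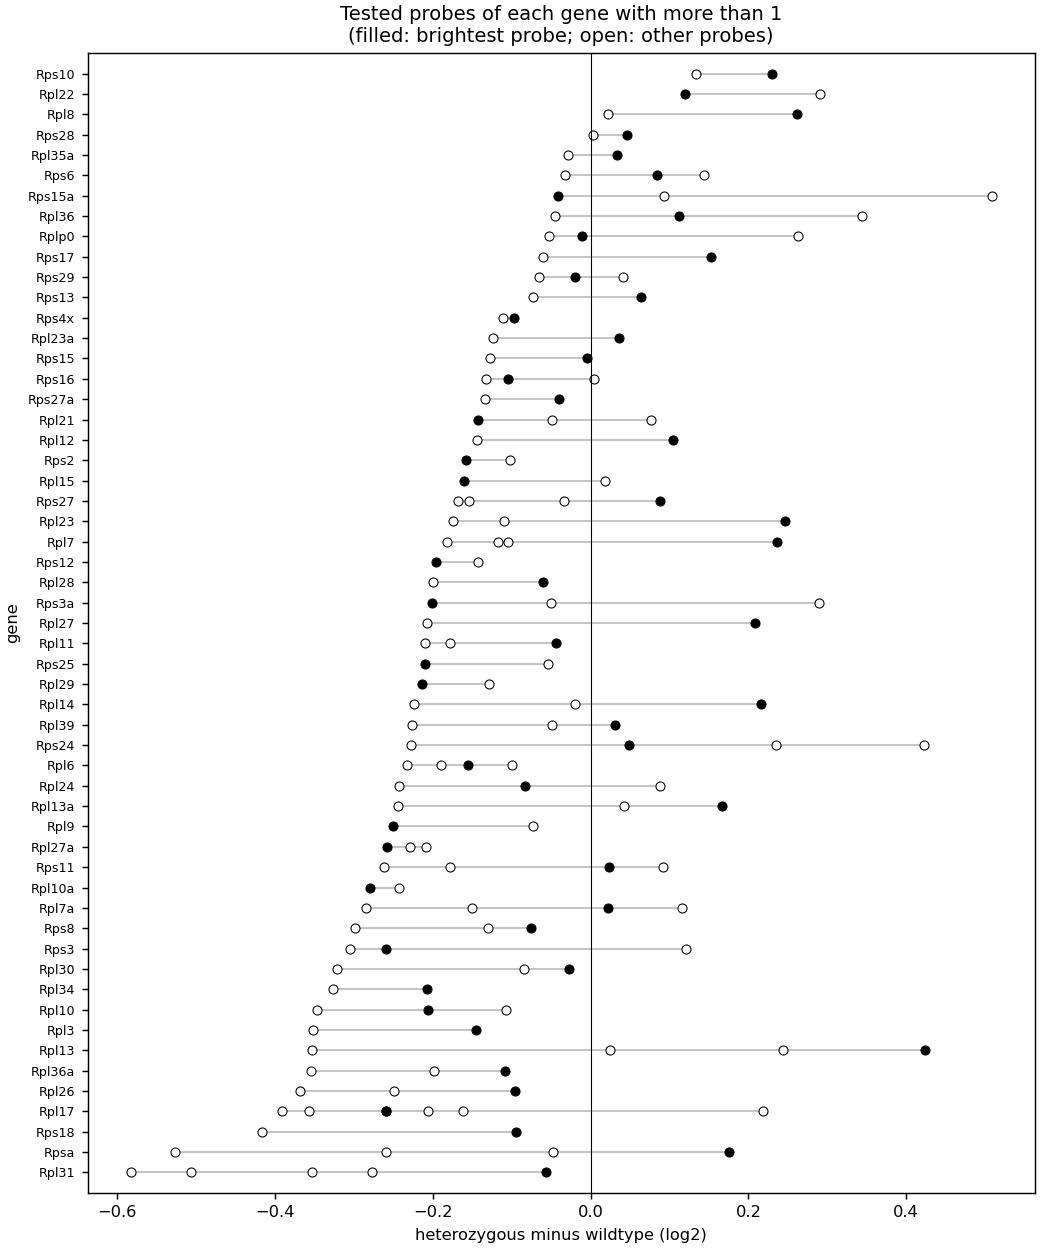
Fitted difference between heterozygous and wildtype samples (log2, horizontal axis) of every tested probe for the 55 genes with more than 1 (vertical axis), with the brightest probe filled. In 29 genes the points lie on both sides of 0, and the widest line is that of Rpl13 (0.78).

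Rps24 and Rpsa followed Rpl13 in the range between probes. Rps24 ran from −0.23 (SE 0.62) to 0.42 (SE 0.75), but each of these 2 probes kept only 1 wildtype value after outlier spots were left out. Its probe at base 356 had all values, 14.44, 14.38, 14.47 and 14.67 against 14.54, 14.85, 14.98 and 14.53, a difference of 0.23 (SE 0.14) with overlapping groups, and 0.12 without the library labelled heterozygous replicate 3. Rpsa, the laminin receptor protein of the small subunit, ran from −0.53 at base 91 to 0.18 at base 876. The probe at base 91, chr9:120037601-120037660 (mm9, plus strand), is shown because its values divided the heterozygous samples.
Rpsa A_55_P2017850: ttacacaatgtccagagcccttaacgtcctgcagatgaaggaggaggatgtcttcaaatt
It measured 13.27, 12.98, 13.05 and 13.15 in wildtype samples against 13.03, 12.26, 12.04 and 13.02 in heterozygous ones, so that replicate 2 and the library labelled heterozygous replicate 3 were low and the other 2 lay within the wildtype range. The difference of −0.53 (SE 0.24) was −0.29 without that library. The Rpsa probe at base 990 measured 16.17, 16.25, 15.56 and 16.31 in wildtype samples against 15.72, 15.62, 16.74 and 16.01 in heterozygous ones. There the library labelled heterozygous replicate 3 was the highest of all 8. The dim Rpsa probe at base 1340, well above background in 4 samples only, gave −0.26 (SE 0.11, limma adjusted p = 0.548).

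A contrast between probes along a transcript was also seen at other members. It was read in 43 genes with probes at least 60 bases apart on the same RefSeq mRNA. The value of the probe nearest the 3′ end minus that nearest the 5′ end was taken in each sample, relative to the wildtype mean. This comparison was chosen after the data were seen. Some pairs lie close together, as at bases 1018 and 1096 for Rplp0, so not every pair spans the transcript. In the library labelled heterozygous replicate 3 the median was 0.23 (log2), and the 3′ probe was relatively higher in 30 of the 42 genes measured (71.4%, against 61.2% of other genes). Such a share was also reached in wildtype replicate 4 (30 of 40 genes) and wildtype replicate 2 (25 of 36, 69.4%), where the medians were both 0.07, so it was the size of the gap and not the share of genes that set the library labelled heterozygous replicate 3 apart. The medians of the other samples lay between −0.15 (heterozygous replicate 2) and 0.08 (heterozygous replicate 1), and that of wildtype replicate 3 was −0.10. Over the 1230 other mRNAs with such probes, the median was 0.13 in the library labelled heterozygous replicate 3 and between −0.05 and 0.05 in the other samples. The widest gaps in that library were 1.74 for Rpsa, 1.17 for Rpl27 and 0.81 for Rpl26. For Rpl27, a large subunit protein, the probe at base 220 measured 13.00, 13.50, 12.61 and 12.83 in the heterozygous samples and the probe at base 586 measured 15.14, 15.05, 15.64 and 15.23. The library labelled heterozygous replicate 3 was thus the lowest of these 4 at the front probe and the highest at the rear one. It also had the lowest share of spots well above background (37.7%). The part of this contrast in the genotype differences was not tested.

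**Figure D5:**
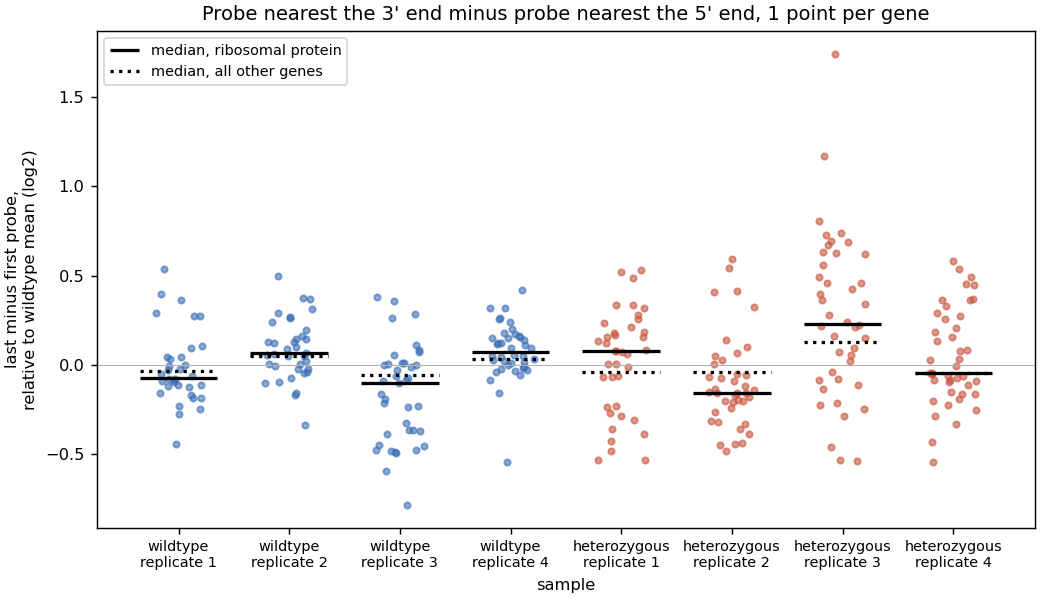
Value of the probe nearest the 3′ end minus the probe nearest the 5′ end of the same mRNA (log2, vertical axis, relative to the wildtype mean) for ribosomal protein genes in each sample, 1 point per gene. Solid lines are medians over these genes and dotted lines medians over other genes, and the solid line is highest in heterozygous replicate 3 (0.23).

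The P-stalk, which recruits elongation factors to the large subunit, had differences of both signs. Rplp1 measured 16.09, 15.97, 15.86 and 15.96 in wildtype samples against 15.66, 15.91, 15.98 and 15.75 in heterozygous ones, a difference of −0.15 (SE 0.11). Rplp2 measured 16.05, 16.25, 15.99 and 16.16 against 15.99, 15.98, 16.51 and 16.15, a difference of 0.05 (SE 0.15). The brightest of 3 Rplp0 probes gave −0.01 (SE 0.14), and its other 2 gave −0.05 and 0.26. Groups overlapped in Rplp1 and Rplp2, and for Rplp2 the library labelled heterozygous replicate 3 was again the highest sample. The same held for Fau, which is made as a fusion with a ubiquitin-like protein, at 16.04, 16.30, 16.49 and 16.54 against 16.01, 16.35, 16.95 and 16.31 (difference 0.06, SE 0.21).

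Members of the 5S particle, Rpl5 and Rpl11, bind 5S rRNA before they join the large subunit and can bind MDM2 outside the ribosome. Rpl5 measured 13.63, 13.83 and 13.74 in wildtype replicates 2 to 4 and 13.77, 13.67, 12.97 and 13.27 in heterozygous samples, a difference of −0.31 (SE 0.22) with the 2 samples of the second heterozygous array below every wildtype value and the other 2 within their range; it was −0.17 without the library labelled heterozygous replicate 3. The 3 probes of Rpl11 gave −0.21 (SE 0.09), −0.18 (SE 0.11) and −0.04 (SE 0.11). The first of these had groups apart, at 15.09 to 15.25 against 14.90 to 15.02. Rps19, a small subunit protein whose human counterpart is mutated in Diamond-Blackfan anaemia, measured 14.29, 14.23, 14.81 and 14.38 in wildtype samples against 14.20, 14.20, 13.44 and 13.93 in heterozygous ones. Its groups were apart by a narrow margin and the difference of −0.48 (SE 0.21, limma adjusted p = 0.562) shrank to −0.29 once the library labelled heterozygous replicate 3 was set aside. Within dyes it was −0.73 among Cy3 and −0.24 among Cy5 samples. Rps6, the substrate of S6 kinase, gave 0.08 (SE 0.09) at its brightest probe, with heterozygous samples all between 15.65 and 15.68 and wildtype samples between 15.50 and 15.66. Rps27a, which is made as a fusion with ubiquitin, gave −0.04 (SE 0.15) and −0.13 (SE 0.17) at its 2 tested probes.

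Paralogue copies known mainly from muscle or testis were dim. Neither probe of Rpl10l was well above background in any sample. The Rpl39l probe was so in 1 wildtype and 2 heterozygous samples, and the Rpl3l probe in 2 of each genotype with a difference of 0.19 (SE 0.12). Rpl36al, by contrast, was measured in every sample, with wildtype values of 13.37, 13.58, 13.07 and 13.51 and heterozygous values of 12.88, 12.89, 13.82 and 13.16. A like order was seen at the Rpl36a probe of base 427, with 13.06, 13.18, 12.81 and 13.16 against 12.61, 12.63, 13.33 and 12.84, and at their best ungapped offset the 2 probes matched at 23 of 39 bases. Both differed by −0.20 between genotypes (SE 0.23 and 0.18), and in both the library labelled heterozygous replicate 3 was the highest of all samples while heterozygous replicates 1 and 2 were the 2 lowest. Rps27l gave 0.02 (SE 0.15), and the 4 Rps27 probes, all placed on chromosome 9 while RefSeq has the gene on chromosome 3, gave −0.17 to 0.09. Rps4x gave −0.10 (SE 0.16) at its X chromosome probe and −0.11 (SE 0.11) at a probe placed on chromosome 3.

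Genes that work with the ribosome were read from lists fixed by name, and none of their members passed the threshold. Single genes are given with values because they had the smallest p of their list by the brightest probe, so they are not typical members. The lists overlap: some members of the first, such as Eef2 and Eif4b, also count as translation factors, and Npm1 also counts under ribosome assembly. Of 24 further transcripts with a 5′ oligopyrimidine tract or bound to ribosomes, 4 had a difference above 0, with a median of −0.12. Their median levels were −0.23, −0.17, −0.12 and −0.00 in heterozygous replicates 1 to 4 and −0.04 to 0.11 in wildtype samples. Within that list, Naca, a subunit of the nascent polypeptide-associated complex, had a difference of −0.31 (SE 0.11). Of 44 genes of ribosome assembly and rRNA synthesis, 16 were above 0 (median −0.04), with Utp4 at 0.68 (SE 0.21) and Eif6, which keeps the subunits from joining, at 0.32 (SE 0.14). Of 37 translation factors, 18 were above 0 (median −0.00), with the initiation factor subunit Eif3m at −0.34 (SE 0.10) and the scaffold Eif4g1 at 0.42 (SE 0.16). Of 78 mitochondrial ribosomal protein genes, 27 were above 0 (median −0.04), close to the cytosolic family, with Mrps9 at −0.44 (SE 0.13) and Mrpl47 at −0.32 (SE 0.11). Of 18 genes of mTORC1 and S6 kinase signalling, 11 were above 0 (median 0.09), with Rptor at −0.26 (SE 0.12) and Deptor at 0.35 (SE 0.20).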

How the data were processed

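The dyes were Cy3 and Cy5, incorporated by T7 amplification, per the labels. Spot intensities (linear scale) were extracted by the authors with Agilent Feature Extraction 10.7.3.1, with mm9 probe positions, per the file headers. Annotation release and other steps are not given in the sources used here. The deposited value table holds a ratio of background-subtracted median intensity to the column median (matched within 1e-04); it served as an alternative. Here, normexp (offset 50), loess within and Aquantile between arrays were applied to mean intensities in R 4.3.3 with limma 3.58.1 and statmod 1.5.0 (data.table in version 1.17.8), which gave single-channel log2 values. Control and outlier spots were left out, none was saturated, and spots of a probe were averaged. Probes well above background in at least 4 of 8 samples were fitted with lmFit and eBayes (genotype and dye, shared array as a random block). P-values were adjusted by Benjamini-Hochberg over 25323 probes. Printed levels are dye-adjusted, except those of Brd2.

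Members and lists were chosen with earlier results of these data known. Named genes were the 6 smallest p in each direction, the 5 genes with most probes, the 3 with the widest range between probes, the P-stalk, Rpsa, Fau, paralogues, Rpl5, Rpl11, Rps6, Rps19, Rps27a, 2 per list and Brd2; 1 list member is not reported here. Rpl27, Rpl26 and other genes with groups apart were named after their values were seen. The fit was tested on simulated data. Python 3.11.15 (pandas 2.3.3, scipy 1.17.1, matplotlib 3.10.9) made the tables and figures.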

Additional observations from a re-analysis of the deposited data

Results flagged for a closer look

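Groups of 4 samples were looked at for each named probe and for the median levels of the family and its subunits. In 12 of 134 such groups, all of them of named probes, 1 sample lay far from the other 3 by Dixon's criterion. Chance alone gives this in about 1 in 20 groups. In wildtype replicate 3 these were Rpl17 A_55_P1954896 at 14.89 (others 14.52 to 14.56), Rpl31 A_55_P2038298 at 15.82, Rplp0 A_55_P1970866 at 14.37, Rps27l at 11.10, Rps27 A_55_P2024322 at 15.66 and Rps4x A_55_P2081829 at 14.51 (log2). The first 2 of these values were the highest of their group and the other 4 the lowest. In the library labelled heterozygous replicate 3 they were Rpl6 A_55_P2042426 at 15.38 (lowest) and Rps24 A_55_P2137773 at 16.37 (highest, others 15.83 to 15.89). In heterozygous replicate 2 they were Rpl31 A_55_P2038298 at 15.53 (highest) and Rpl11 A_55_P2010341 at 14.90 (lowest). The dim Rpsa probe A_52_P372165 was lowest in wildtype replicate 1 at 7.91, and Rpl39 A_55_P2182106 was lowest in heterozygous replicate 1 at 13.27. Thus 6 of the 12 fell in wildtype replicate 3.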

How the results depend on the processing

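The number of cytosolic ribosomal protein probes past the threshold was 0 under all 25 alternatives. The median genotype difference of the cytosolic ribosomal protein genes ran from −0.32 to 0.01: it moved to −0.24 with processed signals at the 75th percentile (large subunit −0.24, small subunit −0.22) and to −0.32 in the deposited value table (−0.34 and −0.31); the cause was not tested. Leaving out each replicate gave −0.09 to 0.01 for all genes, −0.08 to 0.00 for the large and −0.10 to 0.03 for the small subunit. The spread between probes of one ribosomal protein gene was 0.38 among Cy3 samples alone against 0.22, and Brd2 as the mean of its probes was −0.28 against −0.85. Same-numbered samples did not deviate together (correlations −0.30 to 0.17), while wildtype and heterozygous samples of unlike number had correlations from −0.33 to 0.45. With the replicate number as a block the median was −0.01 and no probe passed. Array and genotype cannot be fully told apart, since each array held 1 genotype.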
